A study of Mus musculus with 2 samples.

Results

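Alternative acceptor events are places where an intron can end at either of a pair of 3′ splice sites, so that a segment of RNA between the sites is kept in the exon or removed with the intron. The inclusion ratio that SpliceTrap gives for such a segment, as a percentage (PSI), is the share of transcripts that use the upstream acceptor. The deposited SpliceTrap tables for N2A cells, a mouse neuroblastoma line, held 4973 distinct alternative acceptor segments in 5602 trios, a trio being the segment with its 2 neighbouring exons. A minimum of 20 reads per trio was met in both libraries by 3308 segments, and for 1911 of these PSI lay from 5 to 95 in one library or both. These 1911 assayable events, selected on their measured reads and PSI, are described here, out of 12949 assayable events of all classes. They lay in 1536 annotated genes, with 22 in no annotated gene, and 202 of them shared an acceptor with another event, which leaves 1782 independent sets.

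Each condition had 1 library and no replicate. N2A cells took up a control shRNA (shControl) or an shRNA against Ptbp1 (shptbp1) with Lipofectamine 2k, RNA was collected 3 days later, and strand-specific TruSeq libraries were sequenced in paired reads of 100 bases. With 1 library for each condition, every difference below is between those libraries and not shown for the conditions, intervals cover counting error only, and reads without molecular identifiers are not independent molecules.

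The acceptor of an intron is read in steps. U2AF2 binds the tract of pyrimidines near the end of the intron and U2AF1 contacts the AG at the splice site, after which the second step of splicing joins the exon to the chosen AG. PTBP1, the polypyrimidine tract binding protein, binds runs of U and C in the same region and is best known for keeping exons out of mRNA in cells that are not neurons, while its neuronal relative PTBP2 takes its place as neurons mature. A pair of AGs separated by a single triplet, called a NAGNAG, is the commonest kind of tandem acceptor, and its use adds or removes 1 amino acid in coding sequence.

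Ptbp1 had a mean read depth per base of 2710 in control and 832 in knockdown, and the log2 ratio of its FPKM was -1.61, with Cufflinks bounds of -1.68 to -1.54. For Ptbp2 the log2 ratio was 0.93 (bounds 0.78 to 1.08), and the median over 14147 genes was -0.05. In such bulk RNA, fewer cells making a transcript and less of it per cell cannot be told apart. Of 14 neuronal and sympathoadrenal markers, 12 had a depth of at least 1 in both libraries, all but Nefl and Nefm. Of 9 markers of glia and other cells, 4 had, while Gfap, Aqp4, Mog and Ptprc were below it. Cd68 had no matched entry, so its depth is not known. The summed depth of the matched markers of glia and other cells was 70.5 in control and 56.5 in knockdown. The 1911 events held 813544 junction reads in control and 685237 in knockdown.

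Segment length set 2 kinds of event apart. Short tandem events, with segments of 12 nt or less, numbered 915, of which 657 had 3 nt, and the other 996 were longer, with a median of 51 nt. A multiple of 3 was found for 82.1% of the short segments and 42.4% of the longer ones. Among events between coding exons the figures were 85.7% and 45.1%, so fewer of the longer segments keep the reading frame.

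The sequence at the sites is shown first for short events, since the bases around the AG distinguish them. Lines give 30 nt of intron in lower case, the segment in capitals and 12 nt of the exon that follows in lower case, 5′ to 3′, with coordinates of the window on mm9 (NCBIM37). Prph, Psap and Ybx1 are among the most deeply read events, Mdm4 and Ablim1 are among the largest called rises and Synj1 and Tacc2 among the largest called falls with at least 50 junction reads in each library, and the last 2 lines have no AG before the segment.
Prph, 3 nt (chr15:98889003-98889047, plus strand): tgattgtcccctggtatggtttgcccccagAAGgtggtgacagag
Psap, 3 nt (chr10:59762182-59762226, plus strand): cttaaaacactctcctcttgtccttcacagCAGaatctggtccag
Ybx1, 12 nt (chr4:118951793-118951846, minus strand): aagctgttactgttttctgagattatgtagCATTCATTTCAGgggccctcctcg
Mdm4, 3 nt (chr1:134909277-134909321, minus strand): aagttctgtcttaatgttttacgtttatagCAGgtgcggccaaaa
Ablim1, 6 nt (chr19:57121544-57121591, minus strand): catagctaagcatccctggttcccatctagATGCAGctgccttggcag
Synj1, 9 nt (chr16:90974300-90974350, minus strand): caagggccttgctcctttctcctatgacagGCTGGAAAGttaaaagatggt
Tacc2, 12 nt (chr7:137876990-137877043, plus strand): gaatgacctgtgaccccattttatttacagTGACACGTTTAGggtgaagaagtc
Mon2, 3 nt (chr10:122459989-122460033, minus strand): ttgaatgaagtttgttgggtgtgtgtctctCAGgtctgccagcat
Psap, 6 nt (chr10:59761810-59761857, plus strand): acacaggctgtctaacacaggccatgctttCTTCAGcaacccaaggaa

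In Prph the segment AAG follows a CAG and in Mdm4 the segment CAG follows a TAG, so either AG can end the intron. AG preceded the segment, at the upstream acceptor, in 1854 of 1908 events with sequence (97.2%), and ended it, at the downstream acceptor, in 1900 (99.6%). The 54 events without an upstream AG include 36 short ones, and for these the name of an upstream acceptor rests on the coordinates of the database alone.

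For longer events the lines below show 3 coding rises with segments short enough to print whole, both acceptors of Enah, and 3 coding falls. Capitals again mark the segment kept when the upstream acceptor is used. For segments over 100 nt, the upstream line ends after the first 12 nt of the segment, and the downstream line opens 30 nt before the segment's end.
Kif1b, 78 nt (chr4:148632101-148632220, minus strand): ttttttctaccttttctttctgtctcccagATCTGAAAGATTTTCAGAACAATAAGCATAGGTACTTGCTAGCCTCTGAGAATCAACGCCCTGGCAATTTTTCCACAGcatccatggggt
Mtss1l, 96 nt (chr8:113255832-113255969, plus strand): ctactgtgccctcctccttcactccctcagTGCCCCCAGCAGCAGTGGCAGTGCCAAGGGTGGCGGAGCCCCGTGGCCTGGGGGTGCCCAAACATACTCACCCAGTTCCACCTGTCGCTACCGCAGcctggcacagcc
Serbp1, 45 nt (chr6:67222783-67222869, plus strand): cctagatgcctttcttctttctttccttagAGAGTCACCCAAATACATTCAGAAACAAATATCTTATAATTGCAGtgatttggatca
Enah, 732 nt, upstream acceptor (chr1:183852620-183852661, minus strand): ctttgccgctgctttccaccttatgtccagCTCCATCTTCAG
Enah, 732 nt, downstream acceptor (chr1:183851888-183851929, minus strand): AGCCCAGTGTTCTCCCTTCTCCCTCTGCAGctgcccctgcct
Cask, 15 nt (chrX:13114941-13114997, minus strand): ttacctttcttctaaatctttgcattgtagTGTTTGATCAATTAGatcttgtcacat
Plekha6, 60 nt (chr1:135166547-135166648, plus strand): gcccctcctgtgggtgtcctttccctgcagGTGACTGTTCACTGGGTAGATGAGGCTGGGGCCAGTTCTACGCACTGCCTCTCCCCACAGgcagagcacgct
Pdlim5, 327 nt, upstream acceptor (chr3:141975494-141975535, minus strand): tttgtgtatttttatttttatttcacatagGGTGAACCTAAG
Pdlim5, 327 nt, downstream acceptor (chr3:141975167-141975208, minus strand): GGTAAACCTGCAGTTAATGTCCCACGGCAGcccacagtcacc

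The upstream tract of Kif1b is almost unbroken pyrimidine, at 94.0% over 50 nt, and that of Mtss1l is at 82.0%. Enah, also a rise, was at 84.0%. The other longer events printed lay lower, at 68.0% in both Serbp1, a rise, and Pdlim5, a fall, 66.0% in Cask and 62.0% in Plekha6. As groups they barely differed, with medians of 64.0% over longer called rises, 62.0% over longer called falls and 62.0% over all longer events.

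For most events the 2 libraries used the upstream acceptor to a like degree, with 1215 of 1911 differing by less than 5 points. Rises of at least 5 points numbered 372 (19.5%) and falls of that size 324 (17.0%). Over the 12949 assayable events of every class, 25.3% rose and 25% fell. The median difference, knockdown minus control, was 0.30 points, with quartiles of -3.2 and 3.8. Since members were selected on PSI, these counts are a description. An event above 95 in control could enter only as a fall, and one below 5 only as a rise. Tacc2, Qk (24 nt) and Ncor1 (48 nt), named below, entered in the first way, and Fnbp1 and Gramd1b in the second.

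Junction reads, which also enter the SpliceTrap estimate, give counts with an interval for each difference. An event is termed called here when PSI moved by 5 points or more and the 95% Newcombe interval of the difference in junction PSI lay on the same side of 0. Called rises numbered 101 (5.29%) and called falls 93 (4.87%), against 8.11% and 7.99% over every class. Called events lay in 187 annotated genes, with no gene holding a rise and a fall. The counts stand beside 99 called rises and 40 called falls among 1078 alternative donor events, and 595 and 461 among 3790 cassette exons. With a PSI from 5 to 95 required in both libraries, called acceptor events numbered 91 rises and 72 falls.

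**Figure D1:**
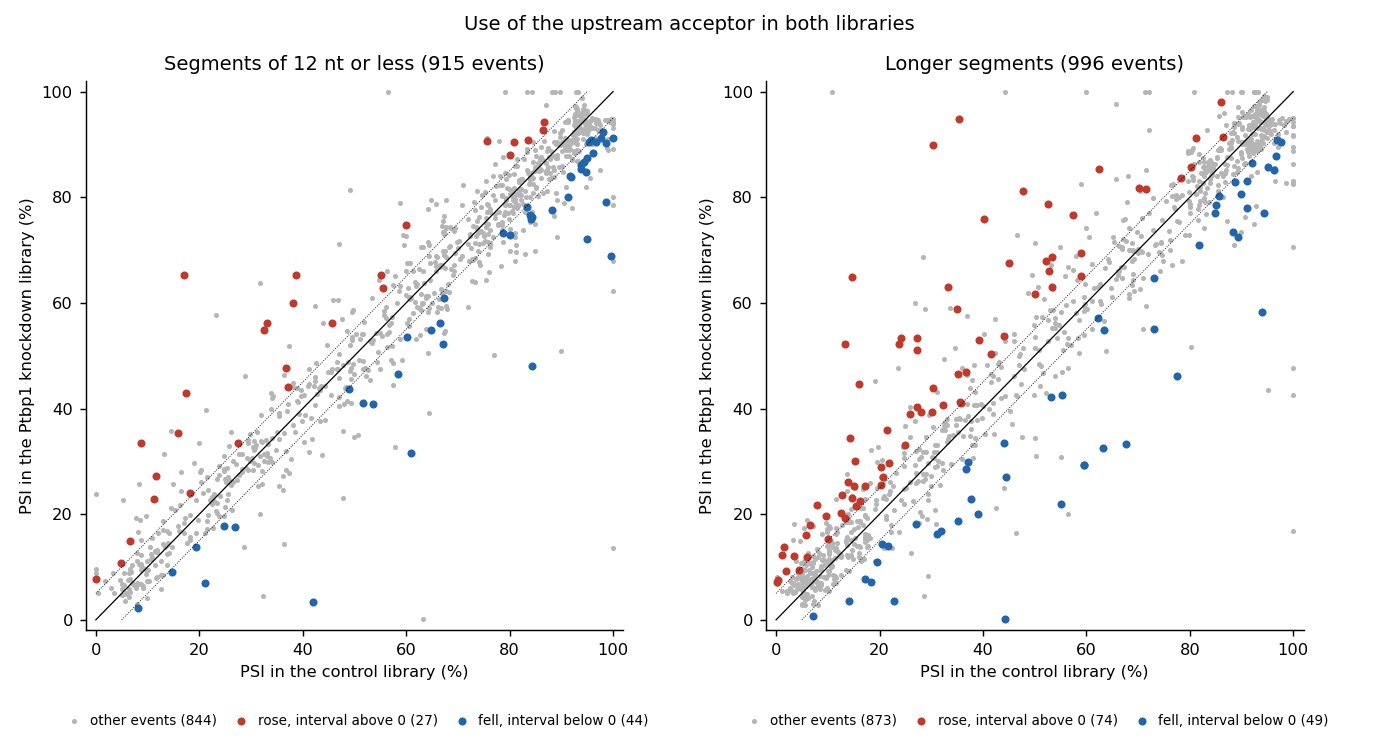
PSI of each event in control (horizontal axis, %) and in the Ptbp1 knockdown library (vertical axis, %), for 915 short and 996 longer events; the solid line marks equal PSI, dotted lines a difference of 5 points, and colours mark called events. Most points lie near the diagonal, with 27 called rises and 44 called falls among short events and 74 and 49 among longer ones.

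Fewer events passed 5 points where more reads were counted. Among 440 events with fewer than 50 junction reads in the shallower library, 66.6% moved by 5 points or more, against 40.4% of 710 events with 50 or more and under 200 reads, 16.2% of 649 with 200 or more and under 1000, and 9.82% of 112 with 1000 or more. All 11 movers of the deepest group were called, 9 up and 2 down. They were Psap (6 nt), Tial1, Serbp1 (45 nt), Prdx2, Ivns1abp, Anapc5 (39 nt), Rpl22l1, Chchd1 and Ncam1 (3 nt) on the rising side, and Hnrnpk and Sdcbp on the falling side. These names were chosen after their values were seen.

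For short tandem events, called falls outnumbered called rises. Their median PSI was 67.3 in control and 67.5 in knockdown, and the median difference was -0.40 points, with quartiles of -3.8 and 2.7. At the 5 point limit there were 144 rises and 174 falls, of which 27 and 44 were called. Short segments that were not a multiple of 3 numbered 164 and held 2 called rises and 15 called falls, while the 751 multiples of 3 held 25 and 29. Median control PSI was 82.9 in the former and 64.3 in the latter. Over all 1911 events the called shares were 5.29% and 4.87%. The difference between these groups was not tested.

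Segments of 4 and 5 nt, which are not multiples of 3, had 58 and 53 events, and those between coding exons, where they shift the reading frame, were 55.2% and 75.5% of these. At 4 nt 5 rose and 18 fell by 5 points or more, with 0 called rises and 6 called falls, and at 5 nt the called events were 1 rise and 7 falls. Usp48, a ubiquitin protease, fell from a PSI of 80.0 to 72.8 at 5 nt from 914 and 629 junction reads (interval -11.8 to -3.19). Pldn, a subunit of the complex that builds lysosome-related organelles, fell from 84.3 to 76.2 at 4 nt from 479 and 303 reads (interval -13.9 to -2.47).

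Mlst8, a subunit of both mTOR complexes, fell from 94.3 to 86.7 at 4 nt (interval -16.3 to -1.11). Osgepl1, an enzyme of mitochondrial tRNA modification, was the called rise, from 86.5 to 92.7 (interval 0.43 to 12.1). Usp48, Pldn, Mlst8 and Osgepl1 were chosen after their values were seen, and all lie in coding sequence.

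NAGNAG pairs made up 648 of the 657 segments of 3 nt (98.6%). The upstream AG was the one used more in 411 of them (63.4%) in control, and the site used more was the same in both libraries in 610. Their median PSI was 64.5 in control and their median difference -0.40 points. Called events numbered 14 rises and 24 falls. Of 43 NAGNAG events with at least 1000 junction reads in each library, 2 moved by 5 points or more, and the whole group ranged from -6.3 to 6.1 points.

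Levels of NAGNAG events differed with the base before each AG. With CAG upstream and AAG downstream the median control PSI was 85.5 over 41 events, and with the order reversed, AAG then CAG, it was 29.1 over 54. A TAG downstream of CAG gave 75.7 (36 events), and CAG followed by CAG gave 62.5 (309 events). GAG upstream of CAG had a median of 16.2 in 6 events, and CAG upstream of GAG had 91.9 in 6. In knockdown the same pairs had medians of 84.6, 28.3, 76.9, 62.1, 13.8 and 89.0, in that order. Among the pairs with at least 10 events, median differences lay between -0.8 and 1.6 points.

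Levels also differed with length. The median control PSI was 85.1 at 4 nt and 89.2 at 5 nt, where the upstream AG was mostly used, 40.1 at 9 nt and 18.2 at 10 nt. Segments of 13 to 30 nt had 36.8 and those of 31 to 60 nt had 59.6. Quartiles were wide, from 13.8 to 75.2 at 9 nt, and lengths of 7, 8, 10 and 11 nt had only 8 to 12 events each.

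**Figure D2:**
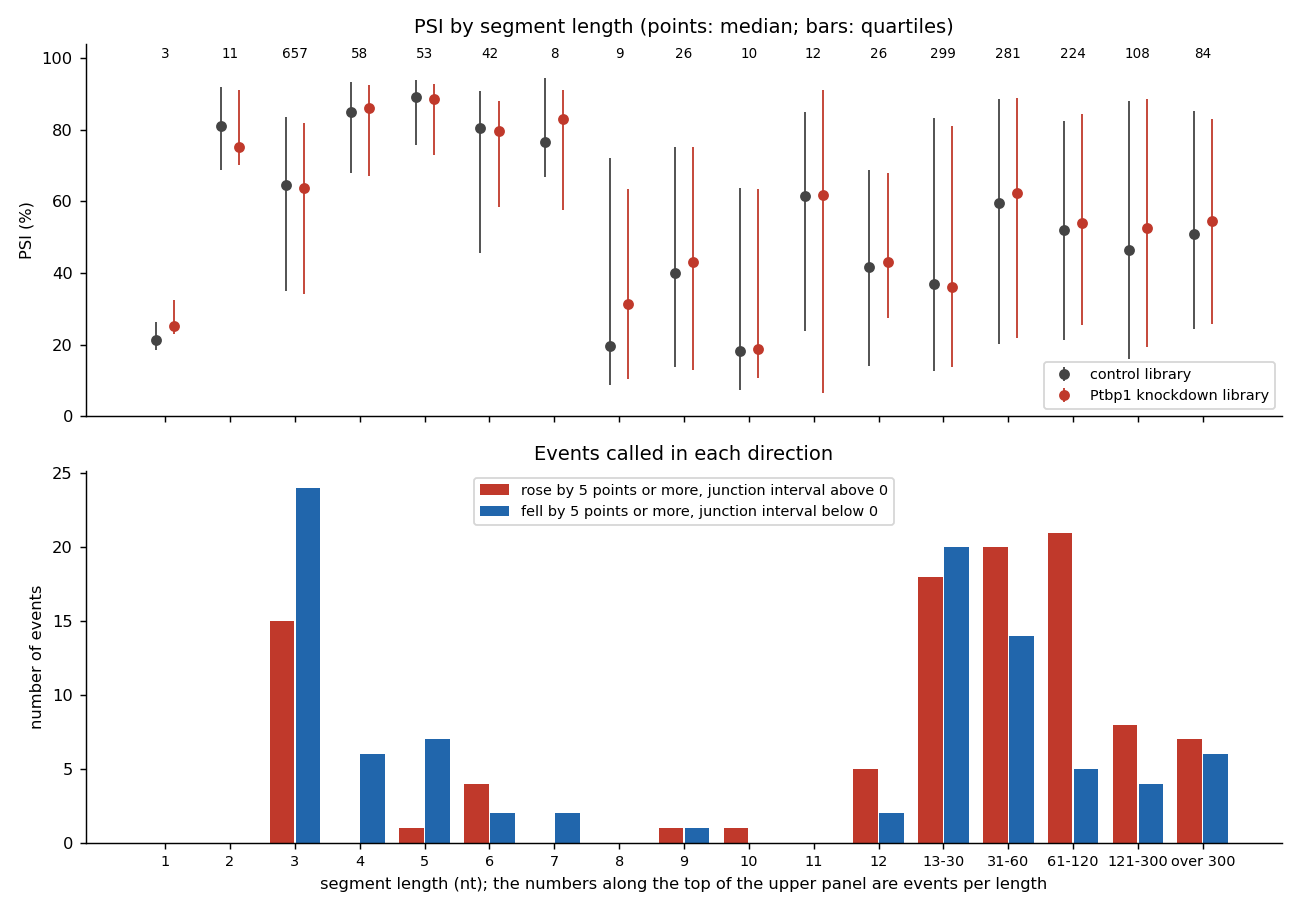
Upper panel, PSI (%) by segment length in nt, with points for medians and bars for quartiles over events in each library; lower panel, number of called events in each direction by length. Control medians are 89.2 at 5 nt and 18.2 at 10 nt, and called rises exceed called falls most at 61 to 120 nt, with 21 against 5.

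The 8 deepest short events all differed by less than 5 points. Prph, the peripherin gene of neuronal intermediate filaments, had a PSI of 93.4 in control and 92.4 in knockdown, with 13894 upstream and 955 downstream junction reads in control and 14392 and 1164 in knockdown. Its junction interval was -1.62 to -0.48 points, which excludes 0 at a size of 1 point. Psap, the prosaposin gene, had 90.1 and 90 for its 3 nt segment (interval -1.24 to 0.94). Gnb1, a G protein beta subunit, had 22.9 and 23.9 in its 3′ UTR by the annotation (interval -0.66 to 2.25).

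Ybx1, a nucleic acid binding protein with a cold shock domain, had a PSI of 6.8 and 9.0 (interval 1.48 to 3.23), a difference below the 5 points of a call. Pcbp2, a poly(C) binding protein, had 42.3 and 40.7 for a 12 nt segment without an upstream AG (interval -2.47 to 0.04). Cnbp, a zinc finger protein whose event also lacks an upstream AG, had 29.4 and 28.3. Rbm3, a cold-inducible RNA binding protein, had 49.4 and 47.7, and Hmgb2, an HMG box chromatin protein, had 85.2 and 87.8 (interval 1.13 to 4.11).

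The largest called short rise with at least 50 junction reads in each library was in Mon2, which acts in traffic between Golgi and endosomes. Its PSI was 17.1 in control and 65.3 in knockdown. There were 90 inclusion and 452 skipping reads in control, and 293 and 152 in knockdown, so the site in the majority changed. Junction PSI was 16.6% (95% Wilson interval 13.7 to 19.97) and 65.8% (61.3 to 70.1), a difference of 49.2 points (43.6 to 54.4). The 3 nt segment is CAG preceded by TCT, as printed above, and no annotated exon holds it.

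Psap had the next rise, at a second site with a segment of 6 nt. PSI was 17.5 and 43.0, with 298 inclusion and 1659 skipping reads in control and 537 and 780 in knockdown. The junction interval was 22.4 to 28.6 points. This segment also follows no AG and is in no annotated exon. The same intron of Psap holds a 5 nt segment of the constitutive class with 1287 inclusion reads in control and 2089 in knockdown, and no skipping read in either.

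Some events without an upstream AG shared their intron with a microexon, a very short exon. Of the 54, 18 had a cassette or constitutive-class segment of 30 nt or less in the same intron. Called rises numbered 5 of the 54 and called falls 0, beside 5.29% and 4.87% of all 1911 events. Median control PSI of the 54 was 19.4, which leaves less room for falls than for rises. Among the 5 called rises, Mon2, the largest, and Nsfl1c, a cofactor of the p97 ATPase, had no such segment found in their introns. Nsfl1c rose from 11.2 to 22.8. Fnbp1, for a membrane-bending F-BAR protein, rose from 1.1 to 12.2 at a 13 nt segment, beside a 15 nt microexon whose PSI was 13.9 and 70.2. Gramd1b, for a protein of sterol transport, rose from 0.1 to 7.8, beside a 12 nt microexon with 2.3 and 43.5. Fnbp1 and Gramd1b were below a PSI of 5 in control, so they could enter the set only as rises. The part of such microexons in the values of these acceptor events was not tested.

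Other short rises had an AG at both sites. Mdm4, an inhibitor of p53, rose from a PSI of 33.1 to 56.2, with 32 inclusion and 61 skipping reads in control and 63 and 48 in knockdown (interval 8.63 to 34.9 points). Ablim1, an actin-binding LIM protein, rose from 38.1 to 60 at 6 nt (interval 11.7 to 31.1). Pnpla6, the neuropathy target esterase, rose from 32.5 to 54.9 at 12 nt (interval 6.34 to 38.4).

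In Cox11, a copper chaperone of cytochrome c oxidase assembly, the 12 nt segment is 5′ UTR by the annotation. In the frame of the coding exons around it, the segment holds a stop codon. PSI rose there from 8.7 to 33.5 (interval 17.2 to 36.6). For Cep250, which links centrosomes, it rose from 11.6 to 27.3 (interval 3.86 to 29.1), and the 3 nt it adds, in a noncoding exon of the annotation, read TAG in frame, a stop codon. Cobll1, a relative of the actin nucleator Cordon-bleu, rose from 75.6 to 90.6 with 24 and 7 skipping reads (interval 3.84 to 24.5).

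The largest called short fall among events with 50 or more junction reads in each library was in Tacc2, a centrosomal coiled-coil protein. PSI was 99.7 in control, with 202 inclusion reads, and 68.8 in knockdown, with 81. It met the PSI limits only through the knockdown library, so it could enter the set only as a fall. The junction difference was -27.2 points (-36.1 to -19.4). The downstream acceptor had 1 read in control and 31 in knockdown, where junction PSI was 72.3% (63.4 to 79.8).

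Synj1, the synaptojanin phosphatase of synaptic vesicle recycling, fell from 21.2 to 6.9 at a 9 nt segment, with 42 inclusion and 152 skipping reads in control and 14 and 184 in knockdown (interval -21.5 to -7.73). Ttc27, a tetratricopeptide repeat protein, fell from 88.2 to 77.6 (interval -17.7 to -5.19). Chtf18, of a clamp loader in sister chromatid cohesion, fell from 53.6 to 40.8 (interval -22.4 to -2.10).

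Zc3h13, of the complex that writes N6-methyladenosine, fell from 58.5 to 46.6 (interval -22.5 to -2.12). Tgfbr1, the type I receptor of TGF-beta, fell from 51.7 to 41.1 at 12 nt (interval -20.1 to -0.76). Zfp68, a zinc finger gene, fell from 91.2 to 80.1 at 6 nt of its 5′ UTR (interval -19.6 to -4.04). A 7 nt segment on the minus strand of chromosome 13, from 14151718 to 14151724, lies in no annotated gene and fell from 67.2 to 52.3 (interval -32.0 to -0.13).

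For longer events, called rises outnumbered called falls. Their median PSI was 50.2 in control and 52.7 in knockdown, and the median difference was 1.15 points, with quartiles of -2.6 and 4.62. At the 5 point limit there were 228 rises and 150 falls, of which 74 and 49 were called. Whether short and longer events differ in direction was not tested. The bin of 61 to 120 nt held 224 events, with 57 rises and 25 falls of at least 5 points and 21 called rises and 5 called falls. Called rises and falls numbered 28 and 24 among 422 segments that are multiples of 3, and 46 and 25 among the other 574. Over all 1911 events the called shares were 5.29% and 4.87%.

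Kif1b, a kinesin that carries synaptic vesicle precursors and mitochondria, had the largest called longer rise among events with at least 50 junction reads in each library. PSI was 14.7 in control and 64.9 in knockdown at a coding segment of 78 nt. Reads on the more covered inclusion junction were 87 in control and 296 in knockdown, and skipping reads were 261 and 75. Junction PSI was 25% (20.7 to 29.8) and 79.8% (75.4 to 83.6), and the difference was 54.8 points (48.3 to 60.5). On the intron-side junction, with 9 and 26 reads, the difference was 22.4 points (14.4 to 31.9). The gene's FPKM had a log2 ratio of -0.70 (bounds -0.79 to -0.62).

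Enah, an Ena/VASP protein that extends actin filaments, rose from a PSI of 33.2 to 63.1 at a coding segment of 732 nt, which keeps the frame. Its reads were 127 inclusion and 169 skipping in control and 315 and 111 in knockdown (interval 23.9 to 37.8). Tpm2, a tropomyosin, rose from 24.1 to 53.4 at 1142 nt with 66 and 63 junction reads (interval 33.6 to 62.9). Its intron-side junction, used here, went from 14 to 45 reads, while the junction inside the exon went from 13 to 10. With the mean of both junctions the difference was 39.7 points (21.3 to 54.8).

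Mtss1l, a membrane-bending I-BAR protein, rose from 52.5 to 78.8 at 96 nt (interval 14.2 to 40.1). Myo9b, an unconventional myosin, rose from 34.9 to 58.8 at 106 nt (interval 2.58 to 26.4, or 7.39 to 41.9 on the intron-side junction). Arhgef40, a guanine nucleotide exchange factor, rose from 27.3 to 51.0 at 110 nt (interval 11.8 to 35.6).

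Bmp1, the procollagen C-proteinase, rose from 16.1 to 44.6 at 658 nt, with 24 inclusion and 57 skipping reads in control and 81 and 37 in knockdown (interval 25.1 to 50.7). Armcx2, an armadillo repeat gene on the X chromosome, rose from 62.4 to 85.4 at 57 nt of its 5′ UTR (interval 6.03 to 28.8).

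The largest called longer fall with the same minimum of reads was in Pdlim5, a PDZ and LIM protein of actin filaments. PSI was 94.0 in control and 58.2 in knockdown at a coding segment of 327 nt. Skipping reads rose from 11 to 72 while the more covered inclusion junction went from 223 to 159 reads, and the junction difference was -26.5 points (-33.0 to -19.8), or -41.5 (-50.0 to -32.0) on the intron-side junction. Plekha6, a pleckstrin homology protein, fell from 55.1 to 22.0 at 60 nt (interval -37.0 to -16.4).

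Cask, a scaffold of the presynaptic membrane, fell from 63.3 to 32.5 at a coding segment of 15 nt, with 125 inclusion and 68 skipping reads in control and 47 and 81 in knockdown (interval -38.2 to -17.0, or -25.5 to -7.33 on the intron-side junction). Rnf216, a ubiquitin ligase, fell from 39.0 to 20 at 171 nt (interval -24.5 to -12.3), and Ncoa7, a nuclear receptor coactivator, from 73.0 to 55.1 at 33 nt (interval -25.8 to -5.13). Cask, Rnf216, Ncoa7, Plekha6 and Pdlim5 keep the frame whichever acceptor is used.

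Fance, of the Fanconi anaemia core complex, fell from 44.4 to 27.1 at 29 nt, a length that shifts the frame (interval -30.1 to -6.71). Dem1, an exonuclease gene, fell from 89.3 to 72.4 at 21 nt of its 5′ UTR (interval -24.6 to -1.15). A 21 nt segment on the plus strand of chromosome 17, from 95170453 to 95170473, lies in no annotated gene and fell from 35.2 to 18.7 (interval -33.3 to -6.15).

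**Figure D3:**
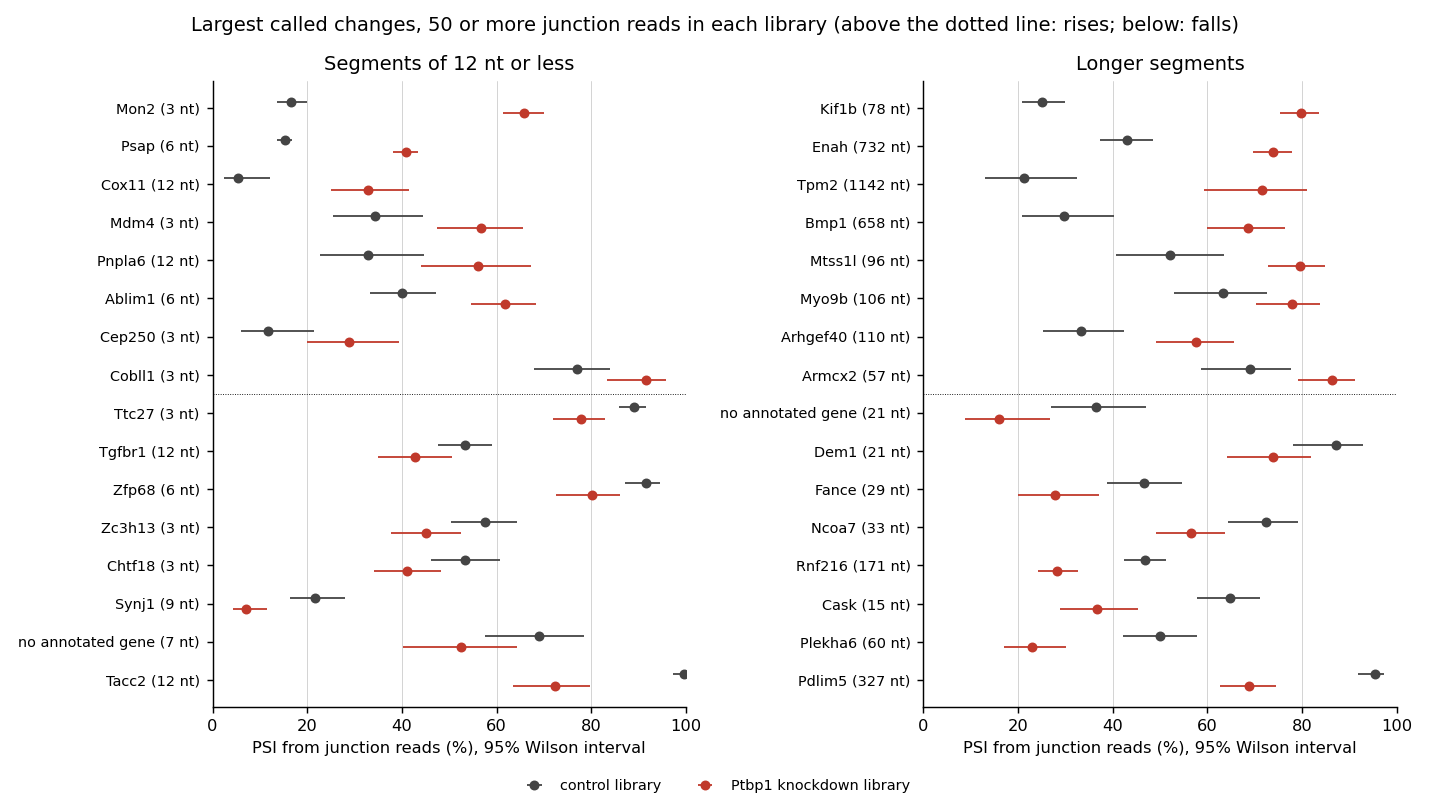
PSI computed from junction reads (%, horizontal axis) in control (grey) and the Ptbp1 knockdown library (red) for the 8 largest called rises and the 8 largest called falls of each length class among events with at least 50 junction reads in each library, with 95% Wilson intervals. The 2 libraries are farthest apart in Kif1b, at 25% and 79.8%, Tpm2, at 21.2% and 71.4%, and Mon2, at 16.6% and 65.8%.

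Of the 52 longer events with at least 1000 junction reads in each library, 15.4% moved by 5 points or more, against 5.0% of the 60 short ones. Several of the deepest longer events are uncertain. Ubb and Rps2 had no skipping read and 1 skipping read in each library, although SpliceTrap gave PSI of 80.1 and 78.7 for Ubb and 81.9 and 79.2 for Rps2. Ubb, Rps2, Rpl3 and Rpl13a have repeats or near-identical copies elsewhere in the genome that can share reads. Rpl3 had a PSI of 7.1 and 8.9 (interval 2.11 to 3.43), and Rpl13a 93.4 and 90.4 (interval -1.59 to -0.62). The 2 overlapping events of Ngfrap1, a neurotrophin receptor associated gene, share the downstream acceptor and had 83.9 and 82.7 at 46 nt, and 66.1 and 66.0 at 41 nt.

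Serbp1, for an mRNA binding protein of the ribosome, held a pair of deep coding events with different values. The 18 nt segment had a PSI of 50.1 in control and 51.4 in knockdown (interval -0.35 to 2.81). The 45 nt segment had 36.7 and 47.0, from 3190 inclusion and 5128 skipping reads in control and 2837 and 2930 in knockdown (interval 9.18 to 12.5). FPKM of Serbp1 had a log2 ratio of -1.21 (bounds -1.27 to -1.15).

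Several genes had a pair of called events, in each case sharing an acceptor, so the pairs are not independent. Acsl4, an acyl-CoA synthetase, rose from 39.3 to 52.9 at 293 nt and from 35.2 to 46.6 at 290 nt. Anapc5, of the anaphase promoting complex, rose from 78.3 to 83.7 at 39 nt and from 35.8 to 41.0 at 15 nt. Surf1, a cytochrome oxidase assembly factor, rose from 12.7 to 23.7 at 40 nt and from 9.6 to 19.6 at 20 nt. Atp6v0a1, a subunit of the vesicular proton pump, fell from 37.2 to 29.8 at 21 nt and from 89.8 to 80.6 at 18 nt. These are the 4 genes with more than 1 called event.

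SpliceTrap's estimate also uses coverage of the segment, so it can differ from the junctions. In control the 2 measures were within 10 points of each other in 1755 of 1909 events with junction reads, and over 20 points apart in 71. Sf1, the branch point binding protein, rose from a PSI of 53.5 to 62.7 at 638 nt, while its junction PSI was 84.1% and 84.0%. Ewsr1, an RNA binding protein of the FET family, rose from 75.7 to 91.3 at 3 nt with a junction interval of -5.69 to 8.80 points. Neither was called.

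Splicing regulators themselves held 38 events in 26 genes of a fixed list of such genes. In this list 7 rose by 5 points or more, 5 fell and 26 moved less, with 3 called rises and 2 called falls and a median difference of 1.0 point, against 0.30 over all 1911. Over all events the shares were 19.5% and 17.0% for rises and falls, and 5.29% and 4.87% for called ones. No event of Ptbp1, Ptbp2 or Ptbp3 was assayable. Tial1, which binds U-rich RNA downstream of donor sites, rose from 27.3 to 40.3 at a coding segment of 51 nt (interval 10.5 to 18.3).

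Fubp3, a KH domain protein, rose from 86.7 to 94.3 at 3 nt (interval 0.18 to 12.9), and Rbm6, an RNA recognition motif protein, from 16.3 to 22.5 at 271 nt (interval 3.20 to 19.9). Qk, the STAR protein quaking, fell from 96.7 to 87.9 at 24 nt (interval -11.9 to -4.15). Hnrnpk, a KH domain hnRNP that binds C-rich RNA, fell from 62.2 to 57.1 at a 60 nt segment that holds an in-frame stop codon (interval -6.72 to -3.07).

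Most events of the splicing regulator list moved less than 5 points, 26 of 38, beside 1215 of 1911 over all events. Hnrnpc, an hnRNP that binds U-rich tracts and competes with U2AF2, had 70.5 and 72.6 at 21 nt (interval 0.18 to 4.03). Pcbp2 had 62.6 and 63.6 at a 24 nt segment of its 5′ UTR. Rbfox2, which reads UGCAUG, had 44.4 and 44.3 at a 12 nt segment without an upstream AG.

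The list of acceptor recognition and spliceosome genes had 15 events in 12 genes. In it 2 rose by 5 points or more and 1 fell, beside 19.5% and 17.0% of all events, none was called, and the median difference was 1.1 points. Acin1 had 78.0 and 80.1 at 36 nt, Prpf19, a ubiquitin ligase of the spliceosome, 16.9 and 18, and Eftud2, the U5 GTPase, 8.7 and 6.8 for a 3 nt segment that ends in ATG (interval -4.29 to -0.50). U2af1l4, a U2AF1 relative, had 93.9 and 95.6 at 25 nt.

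Chromatin and transcription regulators had 60 events in 37 genes, with 5 rises and 11 falls of 5 points or more, beside 19.5% and 17.0% of all 1911 events, and a median difference of -0.6 points. Called were 1 rise and 2 falls, beside 5.29% and 4.87%. Gtf2i, a transcription factor of the Williams syndrome region, was the called rise, from 55.1 to 65.2 at 12 nt (interval 4.57 to 14.8). Tcf7l2, a Wnt pathway factor, fell from 31.9 to 16.8 at 15 nt (interval -28.9 to -2.11), and Ncor1, a corepressor, from 95.1 to 85.7 at 48 nt (interval -12.2 to -1.45).

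The deepest events of that list, in chromatin remodellers, differed little. Chd4 had 86.4 and 87.0 at 3 nt (interval -1.96 to 3.02) and 59.6 and 59.4 at 39 nt (interval -4.66 to 4.93). Smarca4 had 67.6 and 66.6 at 3 nt and 35.4 and 39.2 at 9 nt (interval 0.05 to 8.42), where the AG is missing upstream.

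Cytoskeleton, synapse and membrane traffic genes had 33 events in 29 genes, with 8 rises and 5 falls of 5 points or more, beside 19.5% and 17.0% of all events. The median difference was -0.4 points. Called, beside 5.29% and 4.87% of all events, were Kif1b, Enah and Tpm2 upward, and downward Synj1, Epb4.1l3 and Klc2. Epb4.1l3, a protein 4.1 of the membrane skeleton, fell from 73.0 to 64.8 at 54 nt (interval -11.2 to -1.19), and Klc2, a kinesin light chain, from 27.1 to 18.1 at 37 nt (interval -22.9 to -0.88). Deep members without a call were Dbn1, with 25.3 and 28.8, Picalm, with 28.5 and 27.6, Epb4.1l1, with 81.8 and 80.5, and Ap2a2, with 32.0 and 33.8.

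Levels differed with where the segment lies in the transcript. Coding segments numbered 1156, with a median control PSI of 73.9 and a median difference of -0.20 points, and held 45 called rises and 62 called falls. The 101 segments in noncoding exons had a control median of 19.1 and a median difference of 3.3 points, with 10 called rises and 2 called falls. The 237 outside any annotated exon had 16.2 and 1.5 points, with 17 and 4, and the 260 in 5′ UTRs had 65.2 and -0.05 points, with 13 and 18. Over all 1911 events the called shares were 5.29% and 4.87%. A low control PSI leaves less room for falls and a high one less for rises. Direction by location was not tested.

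Reading frame could be followed through 980 segments that are multiples of 3 between coding exons. An in-frame stop codon was present in 59 of them, with a median length of 84 nt. Their median PSI was 15.8 in control and 17.8 in knockdown, against 63.4 and 64.1 for the 921 without one. Called rises and falls numbered 4 and 2 with a stop, and 40 and 44 without, beside 5.29% and 4.87% of all events.

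Pyrimidine words upstream were counted because the rule did not use sequence. The words TTCT, TCTT and CTCT, on the transcribed strand only and with overlaps counted, were searched in the 100 nt before the segment. Over all 1908 windows 63.5% held TTCT, 59.9% TCTT, 53.5% CTCT and 28.1% all of them. Longer called rises had a mean of 3.88 words per window, longer called falls 2.14, and all longer events 2.89.

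CTCT was present in 48 of 74 longer called rises (64.9%), 16 of 49 longer called falls (32.7%) and 51.2% of all longer events. TTCT was present in 73.0%, 55.1% and 60.5% of these groups. TCTT was slightly more frequent in called falls than in called rises, at 59.5%, 61.2% and 56.0%. All of the words were present in 33.8%, 8.16% and 24.6%, in the same order. Among short events the means were closer, at 3.52 words in called rises, 3.02 in called falls and 3.28 in all, and CTCT was present in 59.3%, 56.8% and 55.9%. Single events overlapped: among the 8 longer rises shown, words ranged from 9 in Kif1b to 1 in Myo9b and 0 in Armcx2, and among the falls from 5 in Rnf216 and Dem1 and 4 in Cask to 0 in Pdlim5. These shares are a description without a test, and a match of letters is not a binding site.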

How the data were processed

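RNA-seq of N2A cells was analysed from 1 control and 1 Ptbp1 knockdown library, grouped by the sample labels. The authors ran SpliceTrap on mm9 and deposited for every trio a fraction, the inclusion ratio, both raw and corrected by its inclusion ratio model (IRM). Each junction came with its unscaled read count, and each segment with its coverage in reads per 100 nt, as deposited. From Cufflinks, run after CASAVA and TopHat per the submitters' processing notes, the authors deposited FPKM with bounds and a coverage as depth per base. Tool versions are not given in the sources used here. FPKM served only as a ratio between libraries.

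PSI was the corrected fraction times 100. One trio was kept per segment, that with the most reads over both libraries. Both libraries had to reach 20 reads, and one of them or both a PSI from 5 to 95. Of the segments with enough reads, 1397 lay outside these limits in both libraries. At the edges, 10 members had exactly 20 reads and 9 segments were left out with 1 read fewer, while 90 members lay within 1 point of a PSI limit and 109 segments were left out by as little. Junction PSI was the more covered of the 2 inclusion junctions (over both libraries) divided by its sum with the skipping junction, with Wilson and Newcombe intervals at 95%. In short segments 98.8% of control inclusion reads were recorded on the junction that comes first in genome order, whatever the strand, so reads of both junctions were not averaged. In 636 of 996 longer events the junction used was the one inside the exon, which unspliced RNA can also carry. Frame, location and sequence came from NCBIM37 and GENCODE, which share the build of the files. Transcripts of the Cufflinks tables were named through a RefSeq gene table.

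The events named are, in each length class, the 8 with the most junction reads, the 8 largest called rises and the 8 largest called falls with at least 50 junction reads in each library, events of PTB genes, and up to 4 of each gene list with the most junction reads. Usp48, Pldn, Mlst8, Osgepl1, genes with a pair of called events, called members of the lists, Rbfox2, U2af1l4 and Ewsr1, events without an upstream AG and the deep movers were added after their values were seen. The members and lists were chosen with earlier results of these data known. No test across conditions was run, since each has 1 library. Alternatives were other limits on reads, PSI and change, the ratio before IRM, the mean over trios, junction PSI, other junctions, other cuts of length, and 3 added after seeing the data. The intervals were tested on simulated data. Scripts ran in Python 3.11.15 with matplotlib 3.10.9 for figures, pandas 2.3.3 and NumPy 2.4.6 for tables, and SciPy 1.17.1.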

Additional observations from a re-analysis of the deposited data

How the results depend on the processing

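Of 101 values recomputed under 16 other settings, 88 stayed and 13 moved. A count stayed if within 1.5 times the reported one, and a share or median if within its reported interval. Only the median difference could change sign, the rest being counts and shares, and it did not. Direction within short and within longer events was not recomputed. A threshold of 10 points left 161 rises and 126 falls, 59 and 42 of them called, and moved 12.9% of short and 17% of longer events, against 34.8% and 38%. These shares were 31.6% and 34.2% with a minimum of 50 reads, 31.3% and 33.7% with at least 20 junction reads, and 39.1% and 46.7% with PSI limits of 10 to 90. With the junction on the intron side alone, 74 rises and 60 falls were called in place of 101 and 93. By construction this setting loses short events of the minus strand, whose reads are recorded on the other junction. Under it Mdm4, Ablim1, Cobll1, Synj1, Chtf18, Dem1 and the segment on chromosome 13 lost their calls. With the mean of both junctions 77 rises and 64 falls were called. Cep250, Chtf18, Zc3h13, Tgfbr1 and the segment on chromosome 13 then lost their calls. Settings chosen after seeing the data, 1 event for each shared acceptor, SpliceTrap's own coverage cutoffs, and events with an upstream AG only, moved none of these values. No paired analysis was possible because each condition has 1 library, and for the same reason no library could be left out. Depth limits the precision, since 440 of 1911 events had fewer than 50 junction reads in the shallower library.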
